A study of Mus musculus with 23 samples.

Results

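Insulin-like growth factor (IGF) and insulin signalling was followed in the mouse hippocampus through 10 named genes: the ligand Igf1, the receptors Igf1r, Igf2r and Insr, the adaptor Irs1, and the binding proteins Igfbp3, Igfbp4, Igfbp5, Igfbp6 and Igfbp7. The members were all probe sets that the platform annotation assigns to 1 of these symbols, whatever their values. Of 12422 non-control probe sets on the array, 13 met that rule and covered 9 of the 10 genes, out of 8251 genes that the array reads by a probe set of their own. The tenth, Igfbp5, had no probe set of its own: its symbol stands only beside Tmem119 on probe set 100566_at, which is described by its values and named for neither gene.

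The study compared 14 mice aged 15 months with 9 mice aged 2 months. All were male, of the strain C57BL/6JNIA, carried no named mutation or transgene, were housed in groups with free food and water, and had learned the Morris water maze, a spatial task, before they were killed. RNA of the whole hippocampus of each mouse was hybridised to a 1-colour Affymetrix array. Each mouse counts as 1 replicate, and p-values weigh a difference or correlation against the spread between these mice.

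IGF1 and IGF2 are secreted peptides related to insulin. The type 1 IGF receptor and the insulin receptor are tyrosine kinases that pass the signal through adaptor proteins such as IRS1 to PI3 kinase and Akt and to the Ras and MAP kinase cascade, while the IGF2 receptor carries IGF2 and lysosomal enzymes to lysosomes. Most IGF in body fluids is held by secreted IGF-binding proteins, which limit or prolong its access to receptors. In the brain this system is known for supporting growth and survival of neurons and for its links to ageing and lifespan.

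No IGF or insulin gene passed the test between ages. Probe sets entered the test if their mean log2(signal + 16) exceeded the 40th percentile of the array (a signal of 91.7), which kept 6 of the 13, for Igf1, Igf1r, Igf2r, Igfbp4 and Igfbp6. Of these, 0 of 6 had an adjusted p under 0.05 in limma with Benjamini-Hochberg adjustment over all 7453 probe sets tested, where 28, or 0.376%, did. At an unadjusted p under 0.05 the count was 1 of 6 (Igf1r), against 12.4% of all tested probe sets, and the Mann-Whitney test likewise called 0 of 6 with 1 at an unadjusted p under 0.05. The differences, 15-month minus 2-month on the log2(signal + 16) scale, were above 0 for 3 and below 0 for 3, with a median of 0.03 against -0.02 over all tested probe sets, of which 55.0% lay below 0. The smallest difference called anywhere on the array was 0.23 in size, and a 95% interval typically reached 0.2 to either side of its estimate (median). Differences much smaller than these were not detectable with this number of arrays. These values describe the whole array and are no limit for each member. The SE of tested members ran from 0.09 (Igf2r) to 0.18 (Igfbp6), and Igf1r did not pass at 0.26 (limma adjusted p = 0.283). Member differences above 0.23 could therefore be missed as well.

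The trimmed mean signal was 500.3 on all 23 arrays, which reflects a common scaling and does not measure quality. Median signals ran from 154.3 to 187.6, and pairs of arrays correlated at 0.943 to 0.983. The 99th percentile of signal ran from 6677 (15-month replicate 3) to 8997 (15-month replicate 8). For 15-month replicate 13 the 25th percentile of signal was 53.4 against 30.2 to 41.8 on the other arrays. Its median correlation with other arrays was 0.947, against 0.967 to 0.977 for the rest. The differences of Igf1, Igf2r, Irs1 and Igfbp3 are therefore also given without it. Of the listed markers, 7 of 9 of hippocampal neurons and 10 of 11 of interneurons were bright enough to test. The list for neighbouring striatum had 1 of 6 bright enough (Drd2), and that for thalamus and habenula 4 of 5, with a score that differed between ages by -0.02 (adjusted exact p = 0.841). Being bright enough does not tell the hippocampus from its neighbours. Values of separate probe sets are not comparable in level. In whole tissue, fewer cells of a type and less RNA per cell cannot be told apart.

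Igf1, the main ligand, was read by probe set 95545_at. Its signal ran from 697.5 through a median of 1132.8 to 1604.2 in 15-month mice, against 957.3 through 1395.9 to 1452.5 in 2-month mice. The ranges overlapped widely, but only 3 of 14 15-month mice (replicates 6, 10 and 13) lay above the 2-month mean. Replicate 2 was the lowest 15-month mouse and replicate 13 the highest. The group means were 1166 ± 220 at 15 months (SD, n = 14) and 1318 ± 169 at 2 months (SD, n = 9). The difference was -0.19 ± 0.10 (SE) on the log2 scale, or 0.878-fold (95% interval 0.760 to 1.01), and did not pass (limma adjusted p = 0.453). Without replicate 13 it was -0.23 (limma adjusted p = 0.313). A second Igf1 probe set, 95546_g_at, was too dim to enter the test and is given with the other dim ones.

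**Figure D1:**
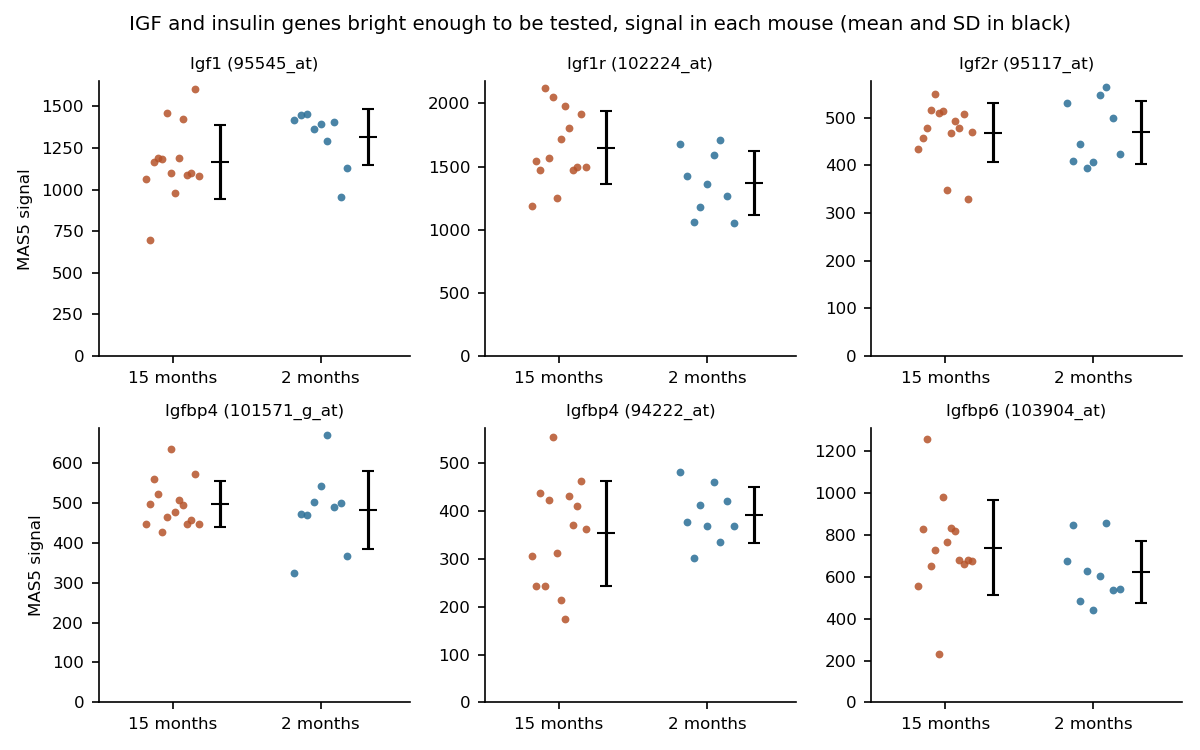
Deposited signal (linear scale, MAS5) in each of 14 15-month and 9 2-month mice for the 6 IGF and insulin probe sets bright enough to test. Black marks are mean and SD. The ages overlap in every panel: 12 of 14 15-month mice lie above the 2-month mean for Igf1r and 3 of 14 for Igf1.

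Igf1r, the tyrosine kinase receptor of IGF1, had the lowest p of the members. Its signal ran from 1188.5 through 1553.4 to 2120.2 in 15-month mice, against 1054.3 through 1360.5 to 1707.4 in 2-month mice. Of the 15-month mice, 12 of 14 lay above the 2-month mean and 6 above the highest 2-month mouse, and 3 of 9 2-month mice lay below the lowest 15-month mouse. Means were 1647 ± 289 at 15 months (SD, n = 14) and 1370 ± 251 at 2 months (SD, n = 9), a log2 difference of 0.26 ± 0.10 (SE), or 1.20-fold (95% interval 1.04 to 1.39). The unadjusted limma p was 0.0155 and the adjusted p 0.283. Leaving out each mouse in turn gave limma adjusted p-values of 0.185 to 0.451.

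Igf2r, the receptor that delivers IGF2 to lysosomes, had nearly the same level at both ages. Signals ran from 328.7 through 479.1 to 549.8 at 15 months, against 393.4 through 444.2 to 564.2 at 2 months, with overlapping groups whose means were 468 ± 62.3 (SD, n = 14) and 469 ± 66.8 (SD, n = 9). The log2 difference was -0.00 ± 0.09 (SE), and the 95% interval of the fold ran from 0.883 to 1.13 (limma adjusted p = 0.992). Without 15-month replicate 13 the log2 difference was 0.03. With a score of microglial markers in the model, described with the marker lists, the log2 difference was -0.23 (limma adjusted p = 0.721).

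Igfbp4, a secreted binding protein that holds IGFs away from their receptors, had 2 tested probe sets. The first, 101571_g_at, ran from 427.6 through 486.0 to 634.5 at 15 months, against 323.8 through 488.4 to 669.5 at 2 months. The second, 94222_at, ran from 173.7 through 366.2 to 554.1 at 15 months, against 300.8 through 376.7 to 481.6 at 2 months. In the first the 15-month mice lay within the 2-month range, and in the second 4 of 14 lay below the lowest 2-month mouse. The 2 probe sets disagreed in direction, with log2 differences of 0.06 ± 0.09 (SE, limma adjusted p = 0.825) and -0.20 ± 0.15 (SE, limma adjusted p = 0.629). With the mean of each age removed they correlated across the 23 mice at -0.06. The third probe set, 101570_at, was dim and correlated with them at 0.07 and -0.09, so the 3 probe sets of Igfbp4 do not give 1 reading of the gene.

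Igfbp6, a secreted binding protein with a preference for IGF2, varied widely between mice. Its signal ran from 230.1 through 705.2 to 1259.2 in 15-month mice, against 440.6 through 602.4 to 855.6 in 2-month mice. The groups overlapped, with 12 of 14 15-month mice above the 2-month mean, and both the highest mouse (replicate 3) and the lowest (replicate 6) were 15 months old. Means were 739 ± 227 at 15 months (SD, n = 14) and 623 ± 147 at 2 months (SD, n = 9). The log2 difference was 0.20 ± 0.18 (SE), or 1.15-fold (95% interval 0.886 to 1.49), with a limma adjusted p of 0.695. Single mice moved it in both directions: it was 0.32 without 15-month replicate 6 (limma p = 0.0162 unadjusted, 0.256 adjusted) and 0.13 without 15-month replicate 3 (limma adjusted p = 0.784).

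**Figure D2:**
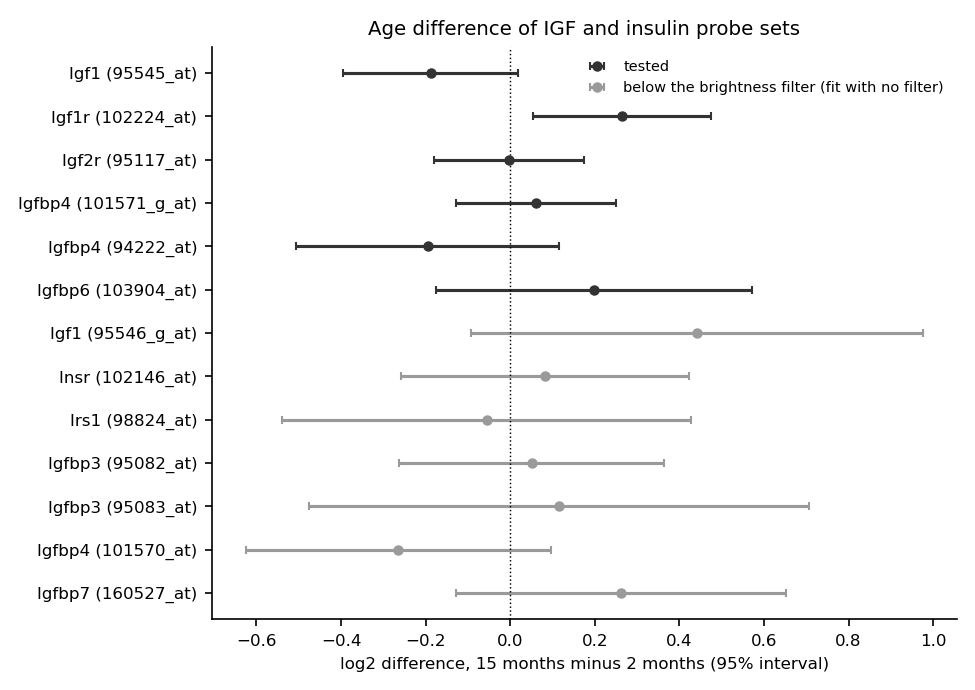
Difference between ages (log2(signal + 16), 15-month minus 2-month) of the 13 IGF and insulin probe sets, points with 95% intervals from limma, black for those tested and grey for those below the brightness filter, which were fitted with no filter. The interval of Igf1r, 0.05 to 0.47, is the only one that leaves out 0, and its adjusted p was 0.283.

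The probe set annotated to both Tmem119, a microglial membrane protein, and Igfbp5 (100566_at) ran from 1534.0 through 1898.7 to 2535.2 at 15 months, against 1602.1 through 1917.7 to 2279.2 at 2 months. The log2 difference was 0.04 ± 0.07 (SE, limma adjusted p = 0.846). Which of the 2 genes it reads cannot be told from the files, so it gives no level of Igfbp5.

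The insulin receptor Insr, its adaptor Irs1, the main serum carrier Igfbp3 and the vessel-associated binding protein Igfbp7 had no probe set bright enough to test. Together with the dim probe sets of Igf1 and Igfbp4 they make 7, which were fitted with no brightness filter over 12422 probe sets, where 0.217% passed. Of these 7, 0 passed in limma and 0 had an unadjusted p under 0.05, against 9.59% of all probe sets in that fit, with adjusted p-values of 0.622 to 0.968. Their differences were above 0 for 5 and below 0 for 2. Detection calls were not used here, and a low signal is a weak reading of the probe set, not a measure of how little RNA there is.

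Insr ran from 5.8 through 16.2 to 54.8 at 15 months, against 9.9 through 14.7 to 25.9 at 2 months (log2 difference 0.08, 95% interval -0.26 to 0.42). Irs1 ran from 2 through 6.25 to 62.5 at 15 months, against 3.8 through 11.9 to 31.4 at 2 months (log2 difference -0.06, 95% interval -0.54 to 0.43). The ages overlapped in both, and in both the highest signal came from a 15-month mouse. For Irs1 that was replicate 13, without which its log2 difference was -0.17. Igfbp3 was read by 95082_at, from 38.2 through 85.3 to 160.6 at 15 months against 60.6 through 82.2 to 95.3 at 2 months, and by 95083_at, from 26.8 through 105.8 to 183.4 at 15 months against 35.6 through 89.5 to 175.5 at 2 months. Those 2 probe sets correlated at 0.42 across mice, and their log2 differences were 0.05 and 0.12. Without 15-month replicate 13 those differences were 0.11 and 0.12.

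Igfbp7 (160527_at), which binds IGFs weakly and is a known product of brain vessels, ran from 36.1 through 103.5 to 145.4 at 15 months, against 55.7 through 60.2 to 100.8 at 2 months. The 15-month mice were spread to both sides, with 7 of 14 above the highest 2-month mouse and 3 below the lowest. The log2 difference was 0.26 ± 0.19 (SE, limma adjusted p = 0.716). The dim Igf1 probe set 95546_g_at ran from 10.1 through 23.9 to 145.7 at 15 months, against 10.2 through 15.7 to 48.5 at 2 months. Its log2 difference was 0.44 (95% interval -0.09 to 0.98), and 0.34 without 15-month replicate 13. The sign is opposite to that of the bright Igf1 probe set, and the 2 probe sets correlated at 0.28 across mice. The dim Igfbp4 probe set 101570_at ran from 5.3 through 14.5 to 47.4 at 15 months, against 15.8 through 22.3 to 36.4 at 2 months. In that probe set 9 of 14 15-month mice lay below the lowest 2-month mouse (log2 difference -0.26, limma adjusted p = 0.665).

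**Figure D3:**
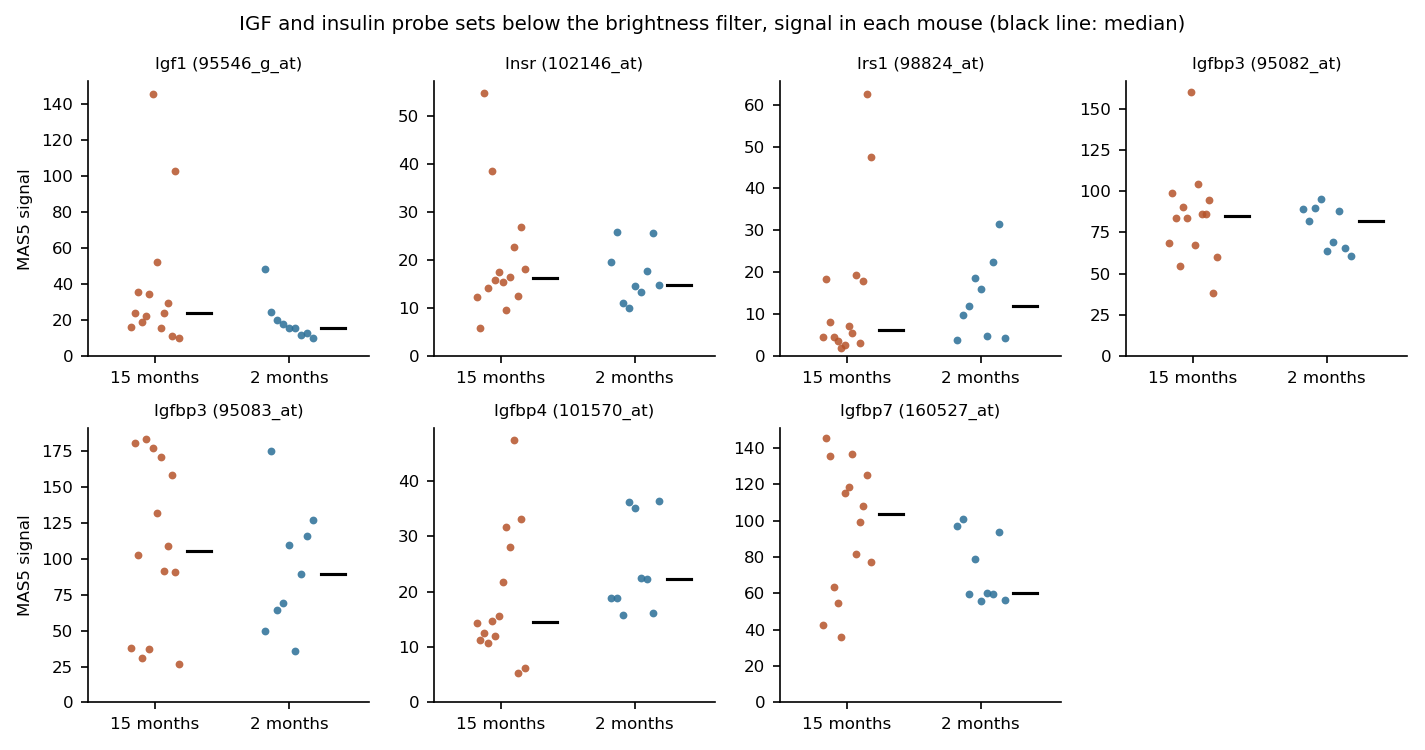
Deposited signal (linear scale, MAS5) in each mouse for the 7 IGF and insulin probe sets below the brightness filter, with the 14 15-month mice left of the 9 2-month mice in each panel and a black line at each median. The ages overlap in all 7, and the highest value in each is from a 15-month mouse, as at 145.7 for the dim Igf1 probe set and 62.5 for Irs1. For Igfbp7, 7 of 14 15-month mice lie above the highest 2-month mouse.

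Around the members, 76 further genes of the pathway were listed by role, of which 54 had a probe set of their own on the array and 37 had one bright enough to test. With the brightest probe set of each gene, 0 of 37 passed in limma, against 0.423% of the 5680 genes tested that way, and 7 of 37 had an unadjusted p under 0.05, against 12.4%. The differences were above 0 for 18 and below 0 for 19, with a median of -0.01 against -0.01 over all genes. By role, 4 of 5 negative regulators and 5 of 6 genes of the mTOR branch lay below 0, as did 55.0% of all tested probe sets. Above 0 lay 4 of 6 adaptors and the FoxO factor Foxo3, while Foxo4 was at 0.001. None passed the test.

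The gene nearest to the threshold was Htra1, a secreted serine protease reported to cleave matrix and IGF-binding proteins. Htra1 averaged 3885 ± 592 at 15 months (SD, n = 14) and 3055 ± 359 at 2 months (SD, n = 9), with 13 of 14 15-month mice above the 2-month mean. Its log2 difference was 0.34 ± 0.08 (SE), with a limma adjusted p of 0.0613, and the range over single mice left out was 0.0249 to 0.159. It was under 0.05 without 15-month replicate 3, 8 or 9 or 2-month replicate 1, at 0.0249, 0.0467, 0.0369 and 0.0451 in that order. Ddit4, an inhibitor of the mTOR complex 1 that is induced by stress and glucocorticoids, averaged 1405 ± 323 at 15 months (SD, n = 14) and 1055 ± 162 at 2 months (SD, n = 9). All 14 15-month mice lay above the 2-month mean for Ddit4, and its log2 difference of 0.39 ± 0.11 (SE) had a limma adjusted p of 0.129.

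Among the other roles the gene of lowest p was in each case further from the threshold. Ptprf, a receptor phosphatase that can act on the insulin receptor, differed by -0.20 ± 0.07 (SE, limma adjusted p = 0.255). Akt2, the Akt kinase best known for insulin-stimulated glucose uptake, differed by -0.16 ± 0.07 (SE, limma adjusted p = 0.346), and Sos1, which activates Ras, by 0.27 ± 0.12 (SE, limma adjusted p = 0.354). Foxo3, a transcription factor that Akt holds out of the nucleus, had a log2 difference of 0.17 and Bad, a cell death protein that Akt phosphorylates, one of -0.25, with limma adjusted p-values of 0.437 and 0.451. Map2k1 (0.14), the growth hormone signalling kinase Jak2 (0.03), the ligand Igf2 (0.36) and the binding protein Igfbp2 (0.06) had limma adjusted p-values of 0.594 to 0.930.

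**Figure D4:**
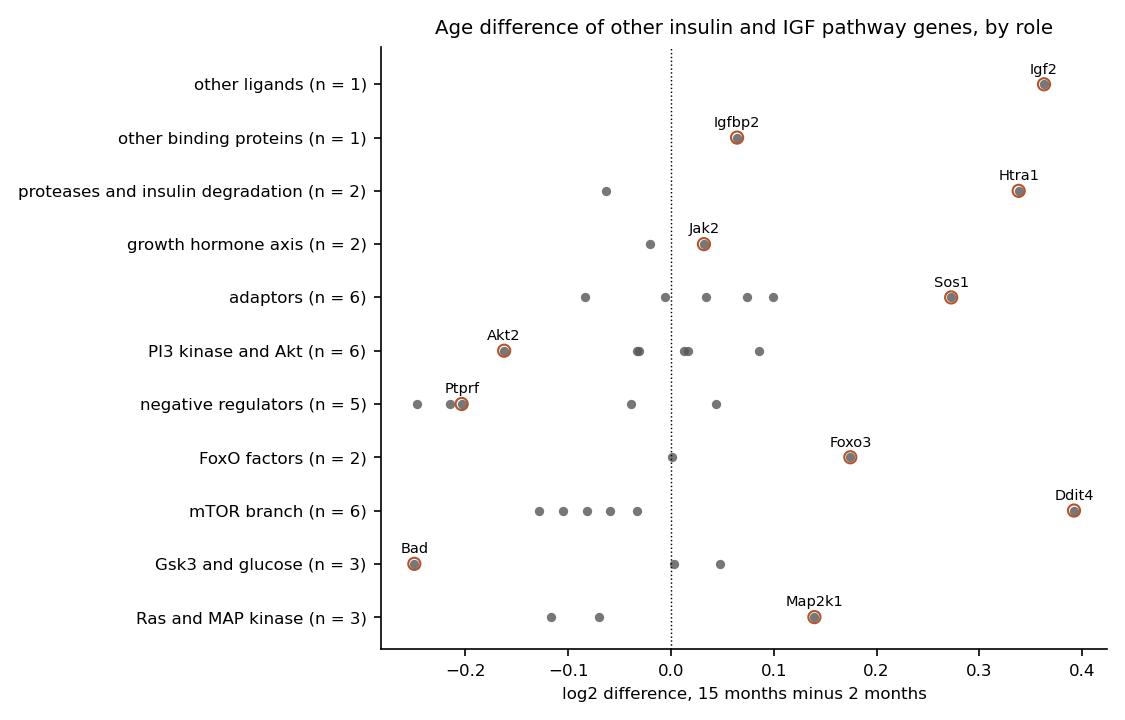
Difference between ages (log2(signal + 16), 15-month minus 2-month) of the 37 tested pathway genes by role, 1 point per gene at its brightest probe set, with the gene of lowest p in each role ringed and named. In all, 18 genes lie above 0 and 19 below, and none had an adjusted p under 0.05.

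Signals of microglial and astrocyte markers differed between ages, while the other lists did not pass (adjusted exact p of 0.472 to 0.841). The part of cell type markers in the values above was not tested. A score per mouse was the mean log2 level of a list's tested markers, compared by an exact two-sided permutation test over 817190 regroupings and adjusted over 10 lists. Microglial markers were higher at 15 months by 0.31 (adjusted exact p = 1.22e-05, from the smallest p the regroupings can give), with 11 of 11 tested markers (16 were listed, none with a signal of 0) above 0 and summed signals of 9012 to 11643 at 15 months against 7176 to 9217 at 2 months. Astrocyte markers were higher by 0.15 (adjusted exact p = 0.0124), with 9 of 10 above 0 and sums of 20630 to 33906 at 15 months against 22247 to 27405 at 2 months. Every 15-month mouse scored above every 2-month mouse for microglia, so a model with this score can hardly separate it from age. With the microglial score in the limma model, Igf1r differed by 0.08 (adjusted p = 0.960) and Igf1 by 0.15 (adjusted p = 0.855). Igf1 then had the opposite sign to its value without the score. Of the dim probe sets, Igf1 95546_g_at was at 1.52 (limma p = 0.00147 unadjusted, 0.337 adjusted), against 0.44 without the score, and Igfbp7 at 0.51 (adjusted p = 0.741), against 0.26. In that model 1 of all 7453 probe sets passed.

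Igfbp6 varied between mice together with markers of meninges and fibroblasts. Each of the 5 tested members was set against 8 marker scores with the mean of each age removed, 40 relations over 23 mice, and by Pearson's r this was the only one with an adjusted permutation p under 0.05, while by Spearman's rho Igfbp6 with mural cells passed as well. Pearson's r was 0.72 (permutation p = 0.00011, adjusted 0.0044) and Spearman's rho 0.75 (permutation p = 0.00016, adjusted 0.0032). The r was 0.70 within the 15-month mice (n = 14) and 0.81 within the 2-month mice (n = 9). Without the 2 mice farthest from the median score (15-month replicates 4 and 7) it was 0.77.

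Of the 15 listed meningeal markers 10 were tested, and Col3a1, Ogn, Aldh1a2, Slc22a6 and Crabp2 were too dim, though none had a signal of 0. Igfbp6 correlated positively with 9 of the 10, from 0.10 for Col1a1 to 0.72 for Fmod, a small matrix proteoglycan, and at -0.24 with Col1a2. The summed signal of the 10 ran from 3925 to 8562 at 15 months, against 4112 to 6891 at 2 months, and 7 of 10 markers had differences above 0. The score differed between ages by 0.18 (adjusted exact p = 0.536). With this score in the limma model the age difference of Igfbp6 was 0.04 (adjusted p = 0.932), and that of the dim Igfbp7 was 0.12.

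**Figure D5:**
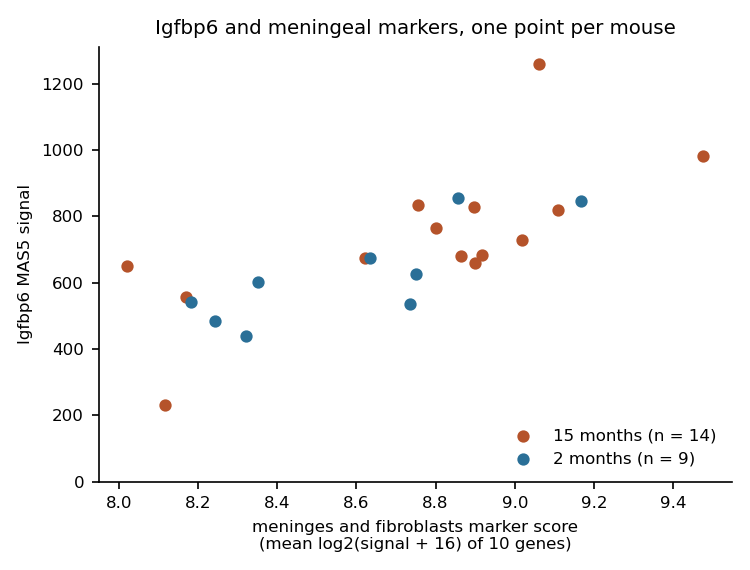
Igfbp6 signal (linear scale, MAS5) against the score of meningeal and fibroblast markers (mean log2 level of 10 genes) in each mouse, by age. Igfbp6 is higher in mice with a higher score, with r, computed on the log2 scale, of 0.70 in the 14 15-month mice and 0.81 in the 9 2-month mice.

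Igfbp6 was also positively related to other scores, though none of these passed by Pearson's r over all mice. With mural cells, the contractile cells around vessels, r was 0.57 (permutation p = 0.00575, adjusted 0.115) and rho 0.75 (adjusted 0.0032). That rho was as high as with the meningeal score. With interneurons, endothelium and choroid plexus, r was 0.54, 0.48 and 0.45 (adjusted permutation p = 0.200, 0.350 and 0.347). Their rho was 0.55, 0.56 and 0.54 (adjusted permutation p = 0.0693 for each). With microglia, astrocytes and oligodendrocytes r ran from -0.13 to -0.02. Without the 2 farthest mice for each score, Igfbp6 also passed with mural cells (r = 0.62, adjusted permutation p = 0.0266) and interneurons (r = 0.61, adjusted permutation p = 0.0428). Igf1 correlated with the microglial score at -0.44 (permutation p = 0.0437, adjusted 0.349), with rho of -0.36 (permutation p = 0.092). Without 15-month replicate 13 that r was -0.31 (adjusted permutation p = 0.603). Between the 5 members themselves, r ran from -0.19 to 0.41, the highest being Igf1 with Igf1r.

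The genes whose signals tracked each member best across the 23 mice, with the mean of each age removed, were taken from 5679 genes by Pearson's r. They are descriptions with no p, since each is the highest of many and all share the arrays and their scaling. For Igf1 they were Stom (0.89), Nudcd3 (0.85) and Htra2 (0.84). Without 15-month replicates 2 and 13, the lowest and highest Igf1 signals, the values were 0.80, 0.71 and 0.72. For Igf1r the first was Csf1r, the receptor that microglia need for survival, at 0.75. It stayed at 0.75 without 15-month replicates 1 and 4, the 2 mice whose Igf1r lay farthest from the mean of their age. Probe sets annotated to Trp53-ps (0.68) and 2210010C04Rik (0.66) followed. Against the whole microglial score, Igf1r had r of only 0.24 (permutation p = 0.285, adjusted 0.815).

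For Igf2r the 3 were H2-Eb1, a chain of the class II antigen-presenting complex (0.71), the adhesion receptor Adgrg1 (0.71) and 1810058I24Rik (0.68), which came to 0.61, 0.52 and 0.30 without 15-month replicates 8 and 13. For Igfbp4 they were Rb1 (0.71), the astrocytic gap junction gene Gja1 (0.69) and the laminin gene Lama2 (0.69), which came to 0.40, 0.51 and 0.47 without 2-month replicates 1 and 6. For Igfbp6 they were Sptssa (0.76), Ciao2b (0.76) and Vtn (0.75), the last of which is on the mural cell list. Without 15-month replicates 3 and 6 the first and second came to 0.56 and 0.55, while Vtn stayed at 0.73.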

How the data were processed

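The authors deposited an intensity (signal, linear scale) for each probe set on each array, which the submitters' processing notes credit to MAS5 with no version. All arrays had the same trimmed mean (2% cut at each end), so no further normalisation was applied. Gene symbols came from the platform annotation (10833 with 1 symbol, 396 with several, 1193 with none), and the 66 control probe sets were left out. The ages were compared as log2(signal + 16) with limma 3.58.1 in R 4.3.3 (intensity trend, robust variance, two-sided, Benjamini-Hochberg over all tested probe sets). Fold changes are on that scale and understate the change of dim genes. Marker scores and relations were computed with numpy 2.4.6 and scipy 1.17.1 in Python 3.11.15, with 100000 permutations for relations. The relation and limma code were tested on simulated data.

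All members were named whatever their result, together with every pathway gene past the threshold or else the 1 of lowest p in each role, and the 3 genes most like each member. The members, lists and tests were chosen with earlier results of these data known. Alternatives covered the offset, brightness filter, normalisation, variance model, test, array weights, covariates and samples left out. The labels give no batch. The running numbers in the titles do not overlap between ages, and the labels do not say what these numbers count. If they follow handling, handling order and age cannot be told apart. The number of arrays limits the precision.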

Additional observations from a re-analysis of the deposited data

Results flagged for a closer look

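Single outlying mice were looked for by Dixon's ratio in the 9 2-month mice only, since groups of over 10, such as the 14 15-month mice, were not tested. In the dim Igf1 probe set 95546_g_at, 2-month replicate 1 had a signal of 48.5, while the other 2-month mice lay between 10.2 and 24.3. The gap to its neighbour was 0.632 of the whole range of the group, above Dixon's 95% critical value for 9 mice. Of 24 sets of 2-month values examined, for probe sets and marker scores, 1 was past its limit, and chance marks about 1 in 20.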

How the results depend on the processing

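The count of members past the test was 0 in each of the 16 alternatives and without any single mouse. Over the array, 28 probe sets passed, 62 with each array's 25th percentile as a covariate, 1 with the microglial score, and 20 to 39 when mice were left out singly. The pathway count was 0, and 1 (Htra1) with the 60th percentile filter (adjusted p = 0.0451) or the 25th percentile in the model (adjusted p = 0.0413). It was 0 to 1 when mice were left out singly, Htra1 passing without 15-month replicate 3, 8 or 9 or 2-month replicate 1. Relations past the threshold numbered 1 by Pearson's r, 2 by Spearman's rho and 3 by r without the 2 farthest mice. Causes of these shifts were not tested.

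Several small log2 differences changed sign, and others moved in the fit with the microglial score (Igf2r to -0.23, Igf1 95546_g_at to 1.52, Igfbp7 to 0.51). That score and age can hardly be told apart in 1 model, so the values of this fit do not separate them. With the microglial score, Igf1 was at 0.15, Igfbp4 94222_at at 0.11, the Tmem119 and Igfbp5 probe set at -0.073, Map2k1 at -0.065, Irs1 at 0.53 and Igfbp3 95083_at at -0.091. With the choroid plexus score, Igfbp2 was at -0.11, Irs1 at 0.054, Insr at -0.0028, Igfbp3 at -0.0090 (95082_at) and -0.058 (95083_at), and the Tmem119 and Igfbp5 probe set at -7.28e-05. With the meningeal score, Igfbp2 was at -0.15, Igfbp3 at -0.034 and -0.13, and that shared probe set at -0.0037, and with the endothelial score Igfbp2 was at -0.0094. Igf2r was at 0.015 after quantile normalisation, 0.0094 after 75th percentile scaling, 0.029 with array weights and 0.036 when the 4 arrays with the lowest 99th percentile were left out, where Jak2 was at -0.021 and Irs1 at 0.10. Leaving out single mice gave -0.031 to 0.034 for Igf2r, -0.0052 to 0.12 for Igfbp4 101571_g_at, -0.032 to 0.22 for Igfbp2, -0.024 to 0.068 for Jak2, -0.17 to 0.037 for Irs1, and -0.016 to 0.11 and -0.0062 to 0.23 for Igfbp3.

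No paired analysis was possible because the replicate numbers only name mice within an age. The Mann-Whitney test was not run on the dim probe sets.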

Other observations

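The ligand Igf2 and the binding protein Igfbp2, both known products of meninges and choroid plexus, varied widely between mice of 1 age. Both were chosen for this description after their values were seen. Igf2 signal ran from 1121 through a median of 2637 to 6610.2 in 15-month mice, against 1401.4 through 1821 to 5270.7 in 2-month mice, with coefficients of variation of 47.5% and 54.9%. Igfbp2 ran from 474.7 through 765.5 to 1887.4 in 15-month mice, against 525.8 through 662.7 to 1832.2 in 2-month mice. The ages overlapped almost fully for both genes, and neither passed the test between ages.

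Both genes were set against the 8 marker scores with the mean of each age removed, 16 relations over 23 mice. The adjustment covers these 16 only and does not allow for the choice of the genes by their values. How far the scores move together was not tested. By Pearson's r 8 of the 16 had an adjusted permutation p under 0.05, those of each gene with the meningeal, mural, endothelial and choroid plexus scores, and 5 did without the 2 mice farthest from the median score. Igf2 correlated with the meningeal score (r = 0.84, rho = 0.81, adjusted permutation p = 5.33e-05 and 0.000107) and with the mural score (r = 0.88, rho = 0.88, adjusted permutation p = 5.33e-05 and 8e-05). Igfbp2 correlated with the meningeal score (r = 0.86, rho = 0.86, adjusted permutation p = 5.33e-05 and 8e-05). The unadjusted p of these r values was the smallest that 100000 permutations can give. Within the 15-month and the 2-month mice, r was 0.86 and 0.80 for Igf2 with the meningeal score and 0.88 and 0.85 for Igfbp2 with it. Without the 2 mice farthest from the median score, the 3 values of r were 0.80, 0.85 and 0.85. Igfbp2 with the mural score (r = 0.73, adjusted permutation p = 0.00036) and Igf2 with the endothelial score (r = 0.70, adjusted permutation p = 0.00088) also passed without those mice, at 0.69 and 0.60. Igf2 with the choroid plexus score had r of 0.65 (adjusted permutation p = 0.00309), and 0.34 without those mice, where it did not pass, nor did Igfbp2 with the endothelial score (r = 0.54, and 0.43 without them). Igfbp2 with the choroid plexus score was less stable, with r of 0.77 (adjusted permutation p = 0.00048), rho of 0.50 (adjusted permutation p = 0.033) and r of 0.47 (adjusted permutation p = 0.104) without the 2 farthest mice.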
